A study of Mus musculus with 30 samples.

Results

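The 10 genes of the colonic crypt base and of the Wnt response, Lgr5, Ascl2, Smoc2, Sox9, Ephb2, Ephb3, Axin2, Rnf43, Znrf3 and Cd44, were followed through the colon RNA-seq of 30 mice. They were matched by gene name and Ensembl identifier, and all 10 of these genes were found among the 46078 genes counted. The animals were C57BL/6J mice, 5 to 6 weeks old at the start, with 6 per group. The groups CD females, CD males, HFD females and HFD males ate a diet with 10% (CD) or 60% (HFD) of its energy as fat for 13 weeks and were injected with vehicle 9 times during the last 3 weeks. The fifth group, HFD+E2 males, had the same HFD and received 17β-estradiol (E2) at 0.5 mg/kg in place of vehicle. No animal was gonadectomized in these groups, the estrous cycle of the females was not followed, and each animal gave 1 library from colon tissue.

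Wnt ligands, strengthened by R-spondins, keep β-catenin stable in cells at the bottom of the crypt, where it switches on target genes together with TCF/LEF factors. Part of these targets mark or maintain stem and progenitor cells, others feed back on the pathway and dampen it. In the colon the crypt base holds the dividing cells, and their progeny lose the expression of most of these genes as they move towards the surface. Lgr5 is a receptor for R-spondins and the standard marker of crypt base stem cells, Ascl2 is a transcription factor of the same cells, and Smoc2 is a secreted matrix protein found in them. Sox9 is a transcription factor of the lower crypt. The receptors Ephb2 and Ephb3 place cells along the crypt axis. Axin2 is part of the complex that degrades β-catenin, and Rnf43 and Znrf3 are ubiquitin ligases that remove Wnt receptors from the cell surface. Cd44 is a hyaluronan receptor of crypt base cells that is also made by other cells, including immune, stromal and squamous epithelial cells.

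The tissue was whole colon wall, so fewer cells of a type and less RNA per cell cannot be told apart in any result given here. Counts on genes ranged from 8667177 to 17243712 per library, with a median of 11530915. Pan-epithelial markers were abundant in every group, with Lgals4 at a mean of 1677 TPM (a level that accounts for gene length and for the depth of a library) and Krt8 at 1177 TPM. Markers of stratified squamous epithelium, which lines the anus and not the colon, were high in some libraries only. Their score, the mean of log2 CPM (read counts scaled to the size of the library) of 14 markers, was between 2.65 and 6.47 in 6 libraries, which were HFD females 1, 3, 4 and 5 and HFD males 2 and 4. It was between 0.13 and 0.23 in CD males 3 and 6 and between -1.18 and -0.38 in the other 22 libraries. Summed over the 14 markers, levels ranged from 7.98 to 16.2 TPM in CD females and from 10.8 to 20.4 TPM in CD males. They ranged from 8.20 to 1560 TPM in HFD females, from 11.6 to 606 TPM in HFD males and from 8.23 to 14.2 TPM in HFD+E2 males. No read fell on Dsg3 in CD females, on Sprr3 in CD males, or on Ivl and Sprr3 in HFD+E2 males. Results that rest on these libraries are therefore given with and without the 8 libraries whose score was above 0.

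The genes were expressed at low to moderate levels, and their order was led by the feedback ligase Rnf43 with a mean of 14.3 TPM over the 30 libraries. Cd44 (12.4 TPM), Smoc2 (10.9 TPM), Ephb2 (10.6 TPM) and Sox9 (10.5 TPM) formed a close group behind it. Axin2 followed at 7.03 TPM, Ephb3 at 5.66 TPM, Znrf3 at 4.30 TPM, Lgr5 at 3.88 TPM and Ascl2 at 1.62 TPM. Neighbours among the first 5 exchanged places between animals. Rnf43 was above Cd44 in 21 of 30 libraries, Cd44 above Smoc2 in 18, Smoc2 above Ephb2 in 13 and Ephb2 above Sox9 in 14. Sox9 exceeded Axin2 in 29 libraries and Lgr5 exceeded Ascl2 in 30 of 30, so these steps were larger than the spread between animals. Axin2 was above Ephb3 in 24 libraries, Ephb3 above Znrf3 in 26 and Znrf3 above Lgr5 in 20. The order depends on the gene models, and counts per kilobase of GENCODE M21 exons put Sox9 first in 4 groups and Cd44 first in HFD females, and put Lgr5 last in CD females, CD males and HFD+E2 males and Ascl2 last in HFD females and HFD males.

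**Figure D1:**
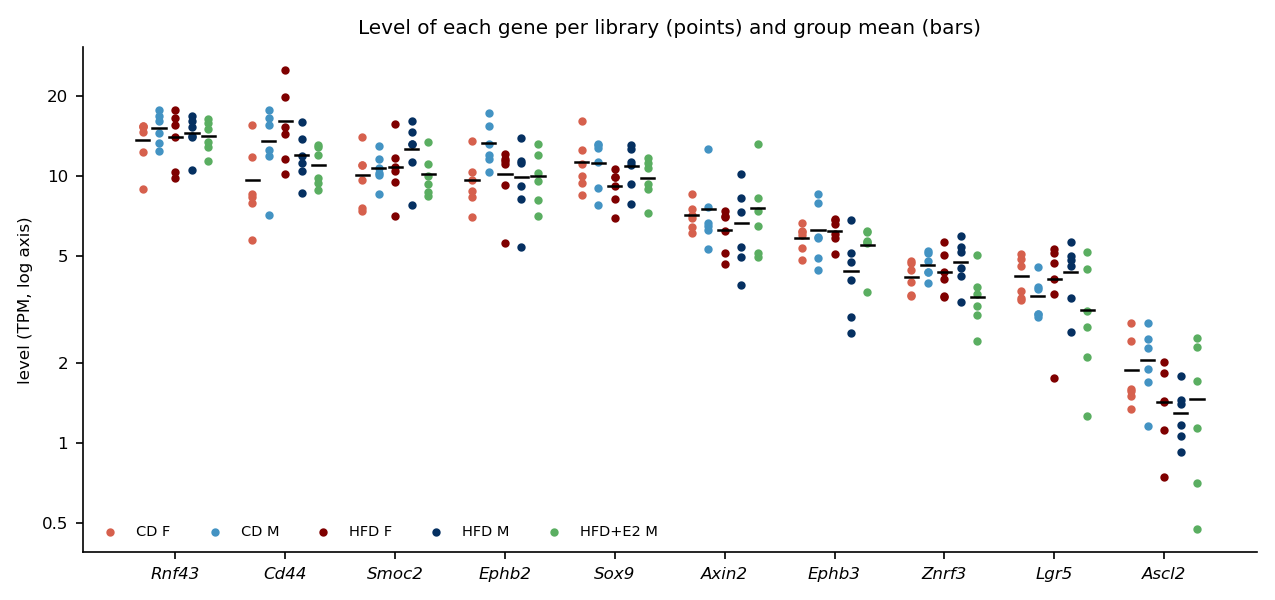
Level of each gene in TPM on a log axis, with 1 point per library, colors for the 5 groups and bars at the group means. Rnf43 has the highest mean (14.3 TPM), the next 4 genes overlap between 10.5 and 12.4 TPM, and Ascl2 is lowest at 1.62 TPM.

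In TPM, the negative feedback genes Rnf43 and Axin2 had the smallest ratios between group means of the 10 genes, and Znrf3 did not. Rnf43 had group means between 13.6 and 15.1 TPM, a ratio of 1.11 between the highest and the lowest group. Axin2 had group means between 6.26 and 7.58 TPM, a ratio of 1.21. Znrf3 ranged from 3.53 ± 0.89 TPM (SD, n = 6) in HFD+E2 males to 4.78 ± 0.92 TPM in HFD males, a ratio of 1.35 that was above those of Sox9 (1.23) and Smoc2 (1.25). This order depended on the unit. In log2 CPM the group means of Znrf3 ran from 4.32 in HFD+E2 males to 4.55 in CD females. Those of Axin2 ran from 4.04 in HFD females to 4.35 in CD males, a wider range than for Znrf3. The widest ratio between group means in TPM was that of Cd44, 1.66, followed by Ascl2 at 1.57. Within groups, Znrf3 varied least between animals (SD 0.14 log2 CPM) and Ascl2 most (SD 0.50 log2 CPM). Counting error alone gives an SD of 0.33 log2 units for Ascl2, whose counts ranged from 6 to 52 per library, and of 0.09 for Znrf3. The spread was 4.85 times the counting error for Cd44 and 4.35 times for Ephb2, against 1.49 times for Znrf3 and 1.51 times for Ascl2, so differences in Ascl2 are limited by its depth.

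Ephb2 exceeded Ephb3, and Rnf43 exceeded Znrf3, in the mean of every group. The ratio of Ephb2 to Ephb3 in TPM averaged 1.64 ± 0.32 (SD, n = 6) in CD females, 2.27 ± 0.82 in CD males, 1.67 ± 0.53 in HFD females, 2.40 ± 0.81 in HFD males and 1.83 ± 0.31 in HFD+E2 males, with overlapping ranges. The ratio of Rnf43 to Znrf3 lay between 3.08 ± 0.54 in HFD males and 4.18 ± 0.99 in HFD+E2 males. These ratios are values of single animals averaged per group and were not tested.

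**Figure D2:**
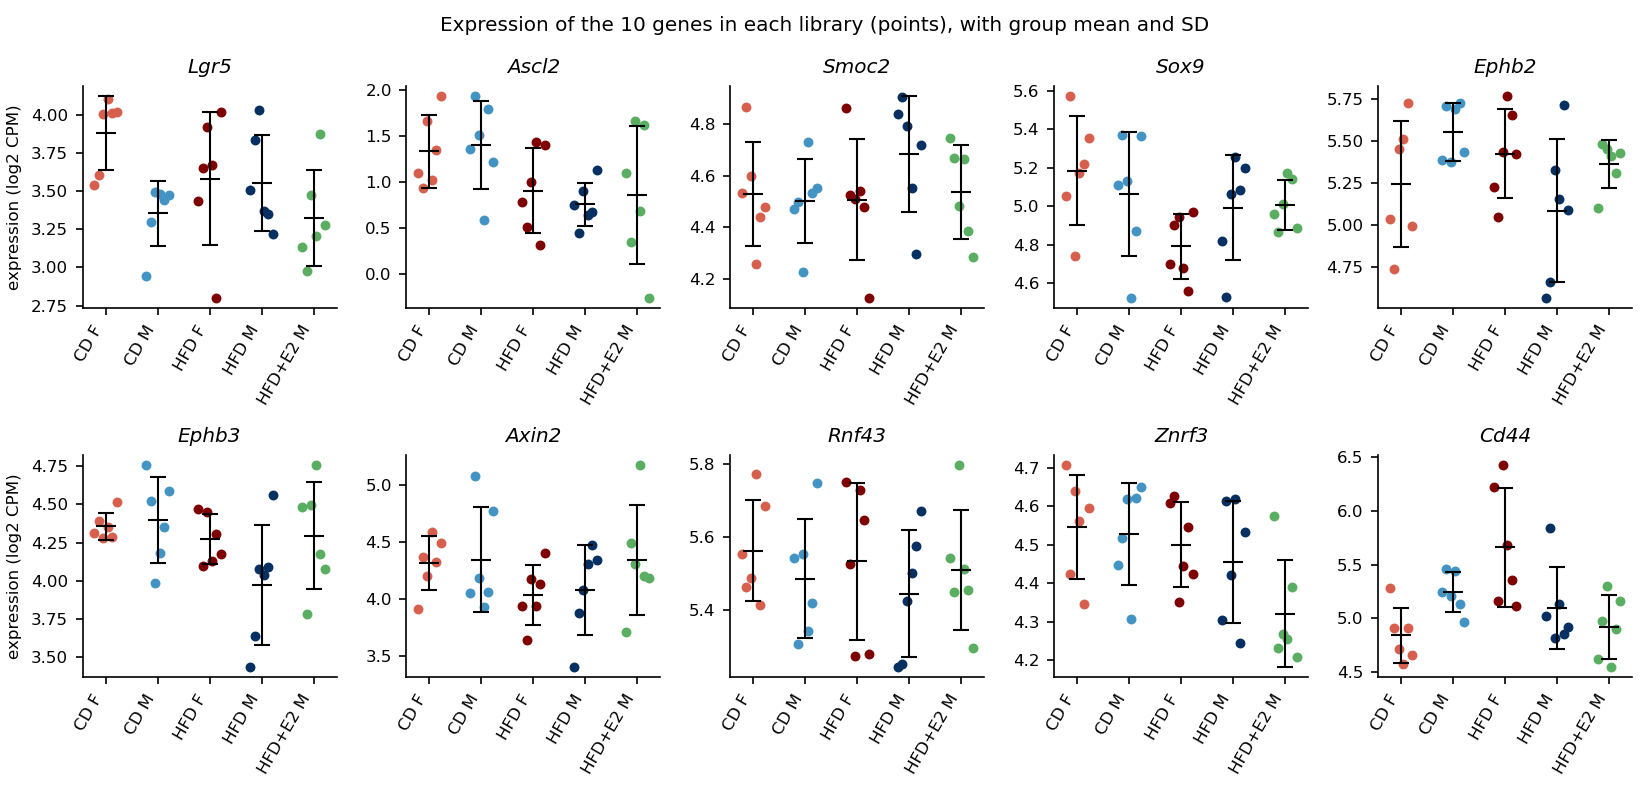
Expression of each gene as log2 CPM in the 30 libraries, with 1 point per animal and the mean and SD of each group in black. Lgr5 in CD females (3.54 to 4.10) lies above all CD males (2.95 to 3.50), and the highest Cd44 values (5.69 to 6.43) belong to 3 HFD females and 1 HFD male.

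Calls of a change followed a pair of rules in the following comparisons. One is an adjusted p-value (Benjamini-Hochberg over all genes tested) under 0.05 in edgeR's quasi-likelihood test. The other, called the study threshold here, is an absolute log2 fold change above 0.4 combined with an unadjusted p-value under 0.05, and it does not account for the number of genes tested. All 10 genes passed the filter on low counts in every comparison. Lgr5, Sox9, Cd44, Ephb2 and Ascl2 are discussed by the study for these same animals, so their calls here are not independent evidence.

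The first question was whether the sexes differed under CD. Lgr5 was higher in CD females than in CD males. It measured 3.54 log2 CPM in the lowest CD female, 4.01 at the median and 4.10 in the highest, and 2.95, 3.45 and 3.50 in CD males. All 6 females were above all 6 males. The log2 fold change was 0.53 ± 0.14 (SE), a 1.45-fold difference with a 95% interval from 0.23 to 0.84 in log2 units, and the adjusted p-value of edgeR's quasi-likelihood test was 0.0472. The exact two-sided permutation test gave p = 0.00216, the smallest that 6 against 6 animals allow. Of the 14922 genes tested, 2.92% had an adjusted p-value under 0.05 and 9.15% passed the study threshold, and Lgr5 was the 1 of the 10 genes to pass either. An unadjusted p-value under 0.05 in edgeR was found for 2207 of the 14922. How many of them separated the sexes as fully as Lgr5 was not counted.

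The adjusted call of Lgr5 depended on the libraries and on the tool. DESeq2 gave a log2 fold change of 0.54 ± 0.14 with an adjusted p-value of 0.00830. With each of the 12 libraries left out in turn, the log2 fold change of Lgr5 stayed between 0.45 and 0.59 and past the study threshold, but edgeR's adjusted p-value ranged from 0.0273 to 0.103 and stayed under 0.05 only without CD female 1 or CD female 2. Without CD males 3 and 6, whose squamous score was above 0, Lgr5 differed by 0.59 ± 0.16 (adjusted p = 0.0955, edgeR). On the deposited TPM values the difference was smaller, with means of 4.21 ± 0.74 TPM in CD females and 3.54 ± 0.64 TPM in CD males (SD, n = 6 each), with a limma log2 difference of 0.20 ± 0.13 (unadjusted p = 0.166, adjusted p = 0.602), short of the study threshold, and there the ranges overlapped.

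Cd44 was lower in CD females, with 4.57, 4.81 and 5.28 log2 CPM at the lowest, median and highest animal against 4.97, 5.22 and 5.46 in CD males. Of the 6 females, 5 were below every male. The log2 fold change was -0.40 ± 0.12, with an unadjusted p-value of 0.00545 and an adjusted p-value of 0.104 in edgeR. Before rounding it was just short of the study threshold, and it passed without CD female 1, 2 or 5 or without CD male 1, 3, 5 or 6, at up to -0.50 (without CD female 1). Ephb2 had a log2 fold change of -0.28 ± 0.15 and neither call, but on log2(TPM + 1) limma gave -0.43 ± 0.15 (unadjusted p = 0.0132, adjusted p = 0.212), past the study threshold. The other 7 genes had log2 fold changes between -0.08 and 0.12, and for Rnf43, Znrf3 and Smoc2 the 95% intervals lay between -0.22 and 0.29. The median over the 10 genes was -0.02, against 0.01 over all genes tested.

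The other genes of the pathway were compared by lists. With an adjusted p-value under 0.05 in edgeR, 2.14% of all genes tested were lower in CD females than in CD males. Of 9 tested Wnt target and feedback genes, 2 were lower by this rule. These were the cell cycle gene Ccnd1 (log2 fold change -0.43, adjusted p = 0.0484) and the Dishevelled antagonist Nkd2 (-0.62, adjusted p = 0.0329). Of 14 tested other crypt base and progenitor genes, Kit was higher (0.42, adjusted p = 0.0404) and the BMP co-receptor Rgmb was lower (-0.45, adjusted p = 0.0426, edgeR). In either direction the share of all genes tested was 2.92%. None of 13 Wnt receptor genes and none of 17 signal transduction genes passed the adjusted threshold in edgeR, while 3 receptors and 0 of the transduction genes had an unadjusted p-value under 0.05. Of all 14922 genes tested, 2207 had one. Of the 3 receptors, Fzd2 (-0.44) and Fzd7 (-0.40) passed the study threshold as lower, against 6.21% of all genes tested.

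Markers of other cell types moved in the same comparison. As lower in CD females, 6.21% of all genes tested passed the study threshold and 2.14% had an adjusted p-value under 0.05 in edgeR. All 10 smooth muscle genes passed the study threshold as lower in CD females, 6 of them with an adjusted p-value under 0.05 in edgeR, such as Actg2 (log2 fold change -0.95, adjusted p = 0.00221) and Acta2 (-0.66, adjusted p = 0.0243). Their summed level ranged from 2635 to 4089 TPM in CD females and from 4147 to 6888 TPM in CD males. Collagen genes of fibroblasts were lower, among them Col3a1 (-0.63, adjusted p = 0.00282), and the goblet cell genes Muc2 (0.57, adjusted p = 0.0190) and Fcgbp (0.50, adjusted p = 0.0398) were higher. Of 10 B cell genes, 5 passed the study threshold as higher, against 2.94% of all genes tested. The summed level of the 10 ran from 14.3 to 71.5 TPM in CD females and from 0.887 to 55.9 TPM in CD males. None of the 10 pan-epithelial genes passed either threshold, and their median was 0.00. With the smooth muscle score as a covariate the log2 fold change of Lgr5 was 0.90 ± 0.18 (adjusted p = 0.0193, edgeR). Smooth muscle levels went closely with sex in these libraries, so this fit can hardly tell sex and smooth muscle apart. Its larger value is therefore not read as a stronger difference in Lgr5. With the B cell score as a covariate the log2 fold change of Lgr5 was 0.65 ± 0.18 (adjusted p = 0.167, edgeR). With the pan-epithelial score it was 0.51 ± 0.14 (adjusted p = 0.0620, edgeR).

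**Figure D3:**
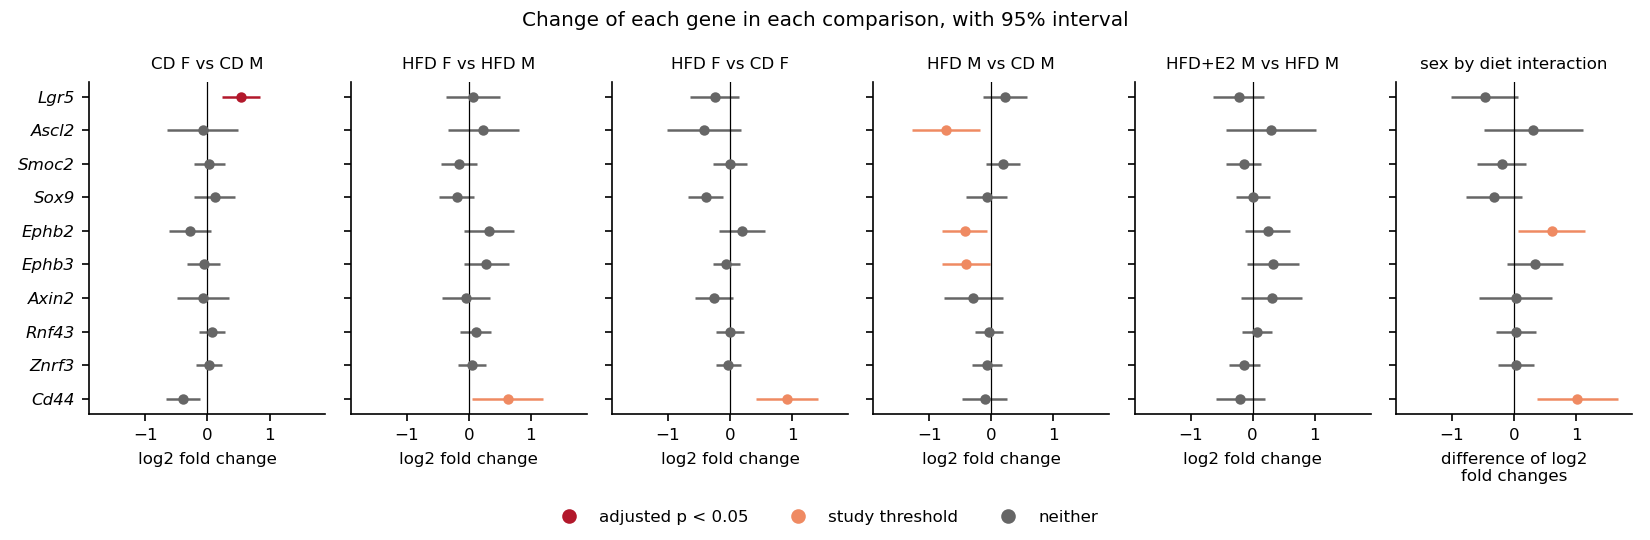
Log2 fold change of each gene (points) with its 95% interval (lines) in the 5 comparisons, and the difference of the sexes' responses to HFD in the last panel. Red marks an adjusted p-value under 0.05, orange the study threshold alone and grey neither. Lgr5 in CD females against CD males is the only red point, at 0.53.

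Under HFD the sexes were compared again. Cd44 was higher in HFD females, with 5.11, 5.52 and 6.43 log2 CPM at the lowest, median and highest animal, against 4.82, 4.98 and 5.84 in HFD males. Of the females, 2 lay above every male and 4 males below every female. The log2 fold change was 0.63 ± 0.25 (unadjusted p = 0.0283, adjusted p = 0.872, edgeR), and Cd44 was the 1 gene of the 10 past the study threshold, against 3.09% of all 15179 genes tested. None of the 10 had an adjusted p-value under 0.05 in edgeR, against 0.0988% of all genes. Cd44 was also the 1 gene of the 10 with an unadjusted p-value under 0.05, and DESeq2 made no adjusted call among them. Lgr5 differed by 0.07 ± 0.20, with a 95% interval from -0.37 to 0.51. The median over the 10 genes was 0.09, against 0.01 over all genes.

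The call of Cd44 under HFD went with the squamous libraries and with the unit. Without the 6 HFD libraries with a squamous score above 0, its log2 fold change was 0.23 ± 0.18 (unadjusted p = 0.234, edgeR), with 2 females and 4 males left. With 1 library left out at a time, its log2 fold change ran from 0.45 to 0.82 over all 12 fits. The call ended in 6 of the 12, namely without HFD female 1 or 3 or without HFD male 1, 3, 5 or 6. On log2(TPM + 1) limma gave 0.35 ± 0.20 for Cd44 (unadjusted p = 0.0990), short of the study threshold, while Ephb3 passed it at 0.46 ± 0.18 (unadjusted p = 0.0225, adjusted p = 0.939).

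HFD was next compared with CD within females. The largest change was again that of Cd44, which measured 4.57, 4.81 and 5.28 log2 CPM in CD females at the lowest, median and highest animal and 5.11, 5.52 and 6.43 in HFD females. Of the HFD females, 4 were above every CD female. The log2 fold change was 0.92 ± 0.23, a 1.89-fold difference with a 95% interval from 0.42 to 1.42, and the unadjusted p-value was 0.00106 (adjusted p = 0.412, edgeR). The exact permutation test gave p = 0.00649, two-sided. In TPM the levels of Cd44 were 9.65 ± 3.5 (SD, n = 6) and 16.0 ± 5.5, and on log2(TPM + 1) limma gave 0.68 ± 0.23 (unadjusted p = 0.0113). Cd44 was the 1 of the 10 genes past the study threshold, which 3.67% of the 15061 genes tested passed, and none had an adjusted p-value under 0.05 in edgeR, against 0.0199% of all genes (2 of the 10, Cd44 and Sox9, were under 0.05 without adjustment). DESeq2 and a fit of all 30 libraries together each gave 1 adjusted call, Cd44.

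In log2 CPM, the 4 highest HFD females for Cd44 were the 4 with squamous markers. HFD females 3, 1, 4 and 5 had 6.43, 6.22, 5.69 and 5.36 log2 CPM of Cd44 at squamous scores of 6.47, 6.03, 5.43 and 3.94, so their order was the same for both measures. HFD females 2 and 6, with scores of -0.84 and -1.13, had 5.16 and 5.11 log2 CPM. The order differed in TPM, where HFD females 3, 1, 4 and 5 had 25.0, 19.7, 10.1 and 14.3 TPM of Cd44, so that HFD female 4 was the lowest of the group, and HFD females 2 and 6 had 15.3 and 11.6 TPM. Among males, HFD male 2 (score 5.10) had 5.84 and HFD male 4 (score 2.65) had 5.14, above the other 4 HFD males at 4.82 to 5.03. Over the 22 libraries with a score below 0, Cd44 ranged from 4.55 to 5.46 with a median of 4.95. Since the libraries fall into clusters by the score, no correlation is given. With the score as a covariate the log2 fold change of Cd44 in females was 0.20 (unadjusted p = 0.286, edgeR), and without the 4 libraries it was 0.29 ± 0.18 (unadjusted p = 0.131). No CD female had a score above 0, so diet and squamous markers cannot be told apart in this covariate fit. Without the 4 libraries only 2 HFD females were left. Of the 14 squamous markers, 5 passed the filter on low counts in this comparison. These 5 all passed the study threshold, against 3.67% of all genes tested, with a median log2 fold change of 4.98. The markers also make up the score that picked out these libraries, so the count is not separate evidence. Between the sexes on HFD all 14 were tested, and 2 had an unadjusted p-value under 0.05 in edgeR.

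**Figure D4:**
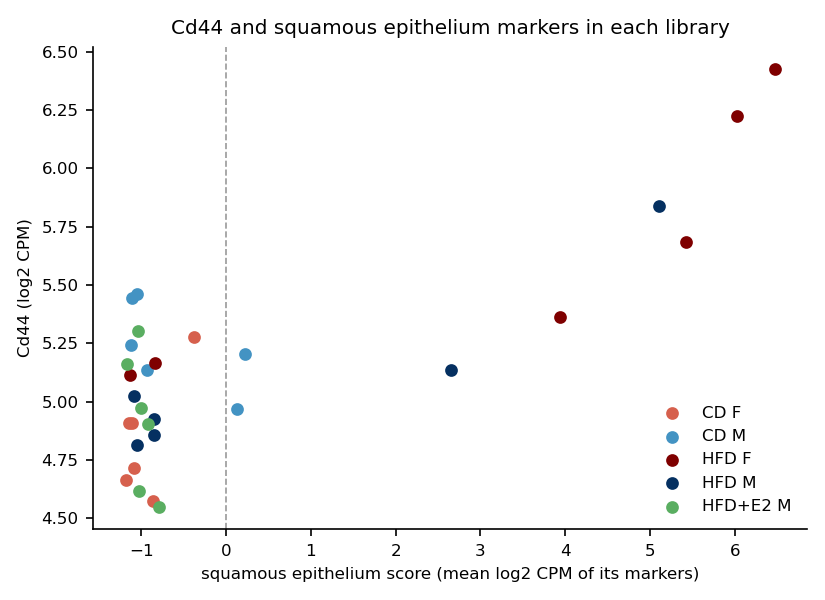
Cd44 expression (log2 CPM) against the squamous epithelium score (mean log2 CPM of 14 markers) in 30 libraries, 1 point each, with a dashed line at a score of 0. The 6 libraries with scores from 2.65 to 6.47 are 4 HFD females and 2 HFD males, and Cd44 reaches 6.43 log2 CPM among them.

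Sox9 showed the opposite direction in females. HFD females had 4.56, 4.80 and 4.97 log2 CPM of Sox9 at the lowest, median and highest animal, and CD females 4.74, 5.20 and 5.57. Of 6 CD females, 5 were above every HFD female. The log2 fold change was -0.39 ± 0.13 (unadjusted p = 0.00721, adjusted p = 0.533, edgeR; exact permutation p = 0.0173), just short of the study threshold, which it passed in DESeq2 (-0.40) and without CD female 1, 3 or 4 or HFD female 2, 3 or 6, at -0.41 to -0.48. It was -0.27 ± 0.19 (unadjusted p = 0.190, edgeR) without the 4 squamous libraries, -0.30 (unadjusted p = 0.116, edgeR) with the squamous score as a covariate and -0.26 (unadjusted p = 0.107, limma) on log2(TPM + 1). As for Cd44, the covariate fit cannot tell diet and squamous markers apart. Ascl2 had a log2 fold change of -0.42 ± 0.27 and Axin2 of -0.26 ± 0.14, neither past a threshold. Rnf43, Smoc2 and Znrf3 differed by -0.03 to 0.00 and their 95% intervals lay between -0.28 and 0.28. The median over the 10 genes was -0.04, against 0.00 over all genes.

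In males, HFD went with lower Ascl2, Ephb2 and Ephb3 at the study threshold. These 3 of the 10 genes were the ones past it, against 2.9% of all 14991 genes tested in either direction and 1.64% as lower in HFD males. No gene of the 10 or of the whole table had an adjusted p-value under 0.05 in edgeR (0% of all genes), where 904 genes of the table had an unadjusted p-value under 0.05, and DESeq2 gave no adjusted call among the 10 either.

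Ascl2 measured 0.59, 1.43 and 1.93 log2 CPM in CD males at the lowest, median and highest animal and 0.45, 0.71 and 1.13 in HFD males. Of the CD males, 5 were above every HFD male. The log2 fold change was -0.74 ± 0.25 (unadjusted p = 0.00844, adjusted p = 0.704, edgeR; exact permutation p = 0.0195), and it remained past the study threshold in all 12 fits that left out 1 library, between -0.88 and -0.62. On log2(TPM + 1) limma gave -0.39 (unadjusted p = 0.0311), short of the study threshold. In TPM Ascl2 had 2.05 ± 0.59 (SD, n = 6) in CD males and 1.30 ± 0.31 in HFD males.

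Ephb2 measured 5.37, 5.56 and 5.72 log2 CPM in CD males and 4.56, 5.12 and 5.71 in HFD males, where 5 of 6 animals were below every CD male. Its log2 fold change was -0.43 ± 0.16 (unadjusted p = 0.0186, adjusted p = 0.802, edgeR). Ephb3 measured 3.99, 4.44 and 4.75 log2 CPM in CD males and 3.44, 4.06 and 4.56 in HFD males, with a log2 fold change of -0.41 ± 0.18 (unadjusted p = 0.0334, adjusted p = 0.823, edgeR). HFD males 1 and 2 were the lowest for both receptors. Each of the receptors passed the study threshold in 7 of the 12 fits that left out 1 library. Ephb2 failed it without CD males 2, 4 or 5 or HFD males 1 or 2, and Ephb3 without CD males 1, 2 or 6 or HFD males 1 or 2.

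The bases that lie before the starts of these 3 genes are shown because the genes were lower together in HFD males. Each run covers the positions from 250 to 51 bases before the RefSeq start on GRCm38.p6, 5′ to 3′ on the strand of the gene. They are Ascl2 at chr7:142969315-142969514 (minus strand), Ephb2 at chr4:136836063-136836262 (minus strand) and Ephb3 at chr16:21204545-21204744 (plus strand).
Ascl2: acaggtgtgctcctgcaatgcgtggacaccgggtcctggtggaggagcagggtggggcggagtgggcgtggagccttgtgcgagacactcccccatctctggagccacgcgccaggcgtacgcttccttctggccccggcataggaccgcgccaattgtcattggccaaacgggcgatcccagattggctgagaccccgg
Ephb2: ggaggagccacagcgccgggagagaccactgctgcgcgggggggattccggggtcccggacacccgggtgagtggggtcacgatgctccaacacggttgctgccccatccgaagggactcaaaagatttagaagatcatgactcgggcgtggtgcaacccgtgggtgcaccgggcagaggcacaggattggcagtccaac
Ephb3: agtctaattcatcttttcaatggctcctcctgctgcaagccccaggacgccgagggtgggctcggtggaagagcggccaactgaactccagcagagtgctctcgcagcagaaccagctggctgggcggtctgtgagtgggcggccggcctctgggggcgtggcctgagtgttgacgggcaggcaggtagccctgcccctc
The letters CTTTGA, the core bound by TCF/LEF factors, were searched on both strands of these 200 bases, and none of the 3 runs holds them, so no base is in capitals. They occur in the same window of 11.8% of 32851 RefSeq promoters. Of the 10 genes, 6 have an entry there (7 starts, with 2 for Rnf43), and none of the 7 windows holds these letters. The runs are rich in G and C, with 66.0% for Ascl2, 64.5% for Ephb2 and 65.0% for Ephb3, against a median of 51.5% over all promoters.

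The squamous libraries touched the male comparison as well. Without CD males 3 and 6 and HFD males 2 and 4, the log2 fold changes were -0.69 ± 0.33 for Ascl2, -0.42 ± 0.21 for Ephb2 and -0.40 ± 0.22 for Ephb3, close to those of all libraries, but with unadjusted p-values of 0.0607, 0.0622 and 0.0890 in edgeR none passed the study threshold. Cd44, at -0.11 ± 0.16 in all libraries, was then -0.44 ± 0.13 (unadjusted p = 0.00594, adjusted p = 0.772). With the pan-epithelial score as a covariate the log2 fold changes were -0.30 for Ephb2 (unadjusted p = 0.0202 in edgeR) and -0.30 for Ephb3 (unadjusted p = 0.0817 in edgeR). The median over the 10 genes was -0.09, against -0.01 over all genes. Among the other lists, 1 of 14 crypt base genes, the membrane protein gene Prom1 (-0.89), and 1 of 9 Wnt target genes, Ccnd1 (-0.41), passed the study threshold as lower.

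The sexes' responses to HFD were compared directly by the interaction of sex and diet in the 24 vehicle libraries. Cd44 had an interaction of 1.02 ± 0.29 log2 units (unadjusted p = 0.00196, adjusted p = 0.477, edgeR), being 0.92 higher with HFD in females and 0.11 lower in males. Ephb2 had an interaction of 0.61 ± 0.24 (unadjusted p = 0.0196, adjusted p = 0.665), with 0.19 ± 0.17 in females and -0.43 ± 0.16 in males. These 2 of the 10 genes passed the study threshold, against 5.18% of 15800 genes tested. In edgeR 0% of all genes had an adjusted p-value under 0.05 and 1066 an unadjusted one, and DESeq2 made no adjusted call among the 10. Lgr5 had an interaction of -0.47 ± 0.24 with an unadjusted p-value of 0.0639 in edgeR, and its 95% interval ran from -1.01 to 0.07. Without the 8 libraries with a squamous score above 0, 2 HFD females and 4 HFD males were left. The interaction of Cd44 was then 0.72 ± 0.22 (unadjusted p = 0.00333, adjusted p = 0.99994, edgeR), still past the study threshold. That of Ephb2 was 0.39 ± 0.34 and was not. Without these libraries the change of Cd44 with HFD was 0.29 ± 0.18 in females, short of the study threshold, and -0.44 ± 0.13 in males, past it. With the smooth muscle score as a covariate Ephb2 was at 0.35 (unadjusted p = 0.121).

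E2 was compared with vehicle in HFD males. None of the 10 genes passed the study threshold, against 5.87% of the 15010 genes tested, and none had an adjusted p-value under 0.05 in edgeR, against 0.00666% of all genes. The unadjusted p-values of all 10 were above 0.05, and DESeq2 made no adjusted call among them. The genes that were lower with HFD in males had positive values with E2. Ephb3 had a log2 fold change of 0.33 ± 0.19 (95% interval from -0.08 to 0.74), Ascl2 of 0.30 ± 0.32 (-0.42 to 1.01) and Ephb2 of 0.24 ± 0.16 (-0.12 to 0.60). Both comparisons use the same HFD males. Axin2 was at 0.31 ± 0.22 and Lgr5 at -0.23 ± 0.18. The intervals of Rnf43, Znrf3 and Sox9 lay between -0.38 and 0.31, and those of Ascl2, Axin2 and Ephb3 reached 0.74 or more, so they include changes of that size. Without HFD male 6 or without HFD+E2 male 2, Ephb3 passed the study threshold, at 0.47 or 0.42.

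Proliferation genes were compared between the same groups. Of 14 such genes, 8 passed the study threshold as lower with E2, against 3.24% of all genes tested, and none had an adjusted p-value under 0.05 in edgeR. The list had a median log2 fold change of -0.63 over the list against 0.04 over the 10 crypt and Wnt genes and 0.00 over all genes. Top2a, the topoisomerase of dividing cells, had -0.85 and Ki-67 (Mki67) -0.57, with edgeR's adjusted p-values of 0.389 and 0.461. Of 17 signal transduction genes, the TCF genes Tcf7l1 (0.75) and Tcf7l2 (0.41) passed the study threshold as higher, against 2.63% of all genes tested, and of 9 tested Wnt target genes 1 did, Tcf7 (0.64).

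Pathway genes upstream of these targets were compared as lists. Lgr4, the R-spondin receptor found throughout the crypt, had the highest level of the Wnt receptors, at a mean of 111 TPM, and Lrp6 followed at 43.5 TPM. Ctnnb1, which encodes β-catenin, had a mean of 219 TPM and log2 fold changes from -0.07 to 0.06 in the 5 comparisons. The medians of the 13 tested Wnt receptors lay between -0.06 and 0.07 and those of the 17 signal transduction genes between 0.00 and 0.18 in 4 of the 5 comparisons, with -0.07 for HFD males against CD males. Of the 13 tested other Eph receptors and ephrins, 3 passed the study threshold as higher in HFD females than in CD females, namely Epha1, Epha3 and Ephb6, against 2.95% of all genes tested. In HFD males against CD males none passed it in either direction, against 2.9% of all genes, and none had an unadjusted p-value under 0.05 in edgeR. The difference between the sexes was not tested for the list. Among HFD females the score of the list was 2.94, 3.02, 2.71 and 2.53 in libraries 1, 3, 4 and 5, which had squamous markers. It was 2.21 and 2.34 in libraries 2 and 6, and 2.33 to 2.63 in CD females. Epha1, Epha3 and Ephb6 were not tested without the squamous libraries.

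The 10 genes did not vary as 1 block between animals. After subtraction of the group means, the 45 pairs had a median Pearson r of 0.04 over the 30 libraries and 24 pairs were positive. The closest pair was Axin2 and Sox9 with r = 0.56 (permutation p = 0.00211, adjusted p = 0.0949) and Spearman's rho = 0.63 (permutation p = 0.00069, adjusted p = 0.0310), and r was 0.51 without the 2 libraries farthest from the median of Axin2. No pair had an adjusted p-value under 0.05 for Pearson's r, and this was the 1 pair that did for Spearman's rho. Sox9 and Ephb3 had r = 0.48, Ephb3 and Rnf43 0.46 and Lgr5 and Ascl2 0.40, with adjusted permutation p-values of 0.180, 0.180 and 0.272. Ephb2 and Smoc2 ran the other way (r = -0.46, rho = -0.34, adjusted permutation p = 0.218).

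Other genes with a profile like that of Lgr5 or Cd44 were sought among 13704 genes, as a description without a test. The 5 closest to Lgr5 after subtraction of the group means over 30 libraries were Trim44 (r = 0.74), Gm24357 (0.72), RP23-358D12.2 (0.72), Rsbn1l (0.71) and Tle6 (0.70), none of which is in a list of crypt base genes used here. The 5 closest to Cd44 were Gsto1 (r = 0.85), Gja1 (0.84), Ly6g6c (0.84), Anln (0.83) and Dmkn (0.81). Spearman's rho for these 5 was lower, from 0.65 (Dmkn) to 0.76 (Gsto1). The libraries with high squamous scores are included, and the profiles were not compared without them.

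Reads could be shared with another gene for Axin2 only. Of its 5506 exon bases in GENCODE M21, 209 (3.80%) overlap the antisense gene Gm11670, and the other 9 genes share no exon base with an annotated gene. The setting for strand in the counting is not given in the sources used here, so reads of this stretch may belong to either gene.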

How the data were processed

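RNA of colon tissue was depleted of ribosomal RNA and sequenced with strand-specific libraries. Per the labels, the authors used bcl2fastq 2.19.1.403, CASAVA, Trim Galore, STAR on mm10, featureCounts and StringTie. The deposited counts are whole reads per gene without normalization, and the deposited TPM values, made by the authors with StringTie, are scaled to gene length and to a fixed total per library. Gene identifiers listed more than once in a TPM table (16 to 24 per library) were summed. The counts of 30 of 30 libraries correlated best with their own TPM values. No libraries of 1 group agreed within sampling noise (lowest chi-square per degree of freedom 7.32).

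Counts of the 12 libraries of each comparison were fitted with edgeR 4.0.16 in R 4.3.3 (filterByExpr, TMM, robust quasi-likelihood F-test), and the interaction of sex and diet with the 24 vehicle libraries. The study names DESeq2, and DESeq2 1.42.0 was an alternative. TPM values were tested with limma 3.58.1 on log2(TPM + 1) for genes with a mean of at least 1 TPM, where fold changes of low genes are understated. Log2 CPM used a prior count of 2. Single genes were also compared by the exact two-sided permutation test over 924 splits, and pairs of genes by 100000 permutations of animals within groups. The score of a list averages log2 CPM over those of its genes with a mean above 0.1 CPM, which need not be the genes tested in a comparison. The test was tried on simulated counts for CD females and CD males with known changes of 2-fold, of which edgeR called 160 of 195 tested, beside 7 unchanged genes. DESeq2 called 168 of 200 tested, beside 27 unchanged genes, so its adjusted calls held more false ones in this simulation. Reads carried no molecular identifiers, and p-values measure the spread between animals.

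The 10 genes, the lists and the comparisons were chosen with earlier results of these data known. The rule for named genes took all 10 genes, the genes of each list with an adjusted p-value under 0.05 (up to 4 per list and comparison) or otherwise the 2 of highest mean TPM, and the 5 genes most like Lgr5 and Cd44. Other list genes past the study threshold are named where they are counted and were chosen after their values were seen. Alternatives were DESeq2's size factors, no filter on low counts or a minimum of 10 in each library, a common fit of the 30 libraries, a block for the replicate number, scores of 4 cell types as covariates, limma on TPM with 1 or 0.1 added, and each library left out. Leaving out the libraries with a squamous score above 0 was chosen after the scores were seen.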

Additional observations from a re-analysis of the deposited data

Results flagged for a closer look

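Of 50 tests for an animal far from the others of its group (10 genes in 5 groups of 6, log2 CPM, Dixon's test), 2 passed the 95% critical value of 0.625, and chance passes about 1 in 20. Lgr5 in CD male 1 was low, at 2.95 log2 CPM against 3.30 to 3.50 in the other CD males (gap over range 0.636). Without this animal the log2 fold change of Lgr5 between CD females and CD males was 0.45, with an adjusted p-value of 0.058 in edgeR. Cd44 in HFD male 2 was high, at 5.84 log2 CPM against 4.82 to 5.14 in the other HFD males (gap over range 0.685). HFD male 2 had the highest squamous epithelium score among males, 5.10, and the part of squamous cells in its Cd44 value was not tested.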

How the results depend on the processing

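Depth limits Ascl2 most, with 6 to 52 counts per library, and with 6 animals per group the 95% intervals of the 52 changes that were not called reached from 0.20 to 0.80 log2 units to either side (median 0.34). Fold changes of the 10 genes had the other sign than reported in 33 of 600 values with 1 library left out and in 72 of 809 under the other settings, and none of these was past the study threshold in either fit or exceeded its standard error in both.

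Between the sexes on CD, 1 gene passed the study threshold, and 2 did (Lgr5 and Cd44) with no filter, at least 10 counts in every library, the smooth muscle, squamous or B cell score, or without the squamous libraries. On TPM the 1 gene was Ephb2 in place of Lgr5. The adjusted count of 1 became 0 with no filter, all 30 libraries in one fit, the squamous, B cell or pan-epithelial score, each limma fit of TPM or without the squamous libraries. Between the sexes on HFD the count of 1 became 2 with the smooth muscle score and 0 with the squamous score or without those libraries, and on TPM the 1 gene was Ephb3 in place of Cd44. For HFD in females the count of 1 became 2 (Sox9 and Cd44) in DESeq2 and with no filter, and 0 with the squamous score or without those libraries, and the adjusted count of 0 became 1 (Cd44) in DESeq2 and with all 30 libraries. For HFD in males the count of 3 became 1 with the squamous or pan-epithelial score (Ascl2) and without the squamous libraries (Cd44), and 2 with the smooth muscle score (Ephb3 and Ascl2, with Ephb2 at -0.28) and on log2(TPM + 1) (Ephb2 and Ephb3). The interaction count of 2 became 1 (Cd44) with the smooth muscle score or without the squamous libraries. The cause was not tested. Leaving out 1 library gave from 1 to 2 genes on CD (0 to 2 adjusted), 0 to 1 between the sexes on HFD, 1 to 2 for HFD in females, 1 to 3 for HFD in males and 0 to 1 for E2.

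On TPM the median of all genes shifted by -0.13 log2 units between HFD+E2 males and HFD males and by less than 0.1 in the other comparisons. The replicate numbers were not taken as a pairing of the animals in the main fits. Correlations of same-numbered animals ranged from -0.218 to 0.468, and no comparison had all 6 over 0.1. In the 5 comparisons, 3, 1, 0, 2 and 3 of 6 correlated best with their own number. The mean correlation of same-numbered animals was nevertheless the higher one in each comparison, at 0.0256 to 0.211 against -0.0415 to -0.00525 for other numbers. What same-numbered animals share was not tested. With the replicate number as a block, 2 genes (Lgr5 and Cd44) were called between the sexes on CD by either rule (adjusted p = 0.00658 for Lgr5, edgeR), 0 between the sexes on HFD, and 3 for the interaction.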
